A study of Macaca mulatta with 12 samples.

Results

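Glycolysis splits glucose into pyruvate in the cytosol, and its flux is set largely by the hexose transporters that admit glucose, by hexokinase and phosphofructokinase, and by the fate of pyruvate. Pyruvate is either reduced to lactate and exported by monocarboxylate transporters or enters the mitochondria through pyruvate dehydrogenase, which the pyruvate dehydrogenase kinases (PDKs) switch off. Pluripotent stem cells are known for a strong reliance on glycolysis, and much of the pathway is encoded by paralogous isoenzymes that differ between tissues.

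The genes described here are the enzymes of this pathway, the PDKs, the regulatory phosphofructokinase-2 enzymes and the SLC2A and SLC16A transporter families. They were chosen by gene symbol alone, from probe sets whose platform annotation gives exactly 1 symbol, and each gene was read through its probe set with the highest mean over all 12 arrays. This gave 41 genes with 73 probe sets, of 14132 genes and 52766 probe sets in all. There were 21 enzymes, 14 of them on the path from glucose to pyruvate, and 20 transporters, 10 in each family. PGK1, PGAM1, PFKM, LDHB, LDHC, ENO3, PFKFB2 and PFKFB4 had no probe set of 1 symbol and were not analysed here.

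Rhesus macaque cells were profiled on Affymetrix rhesus arrays, 3 arrays for each of 4 populations. ORMES-22 is a biparental embryonic stem (ES) cell line from a blastocyst made by in vitro fertilisation and served as the biparental control. rPESC-2 is a heterozygous parthenogenetic ES line, and ORMES-9 is described as a homozygous parthenogenetic ES line, although its source label names a fertilised blastocyst; it was analysed as parthenogenetic. The skin fibroblasts came from a back skin biopsy of a 9-year-old adult rhesus monkey and were released with collagenase. All 4 populations grew in 5% oxygen and 3% CO2 in DMEM/F12 medium. The ES lines are labelled female, grew on mitotically inactivated mouse embryonic feeder cells in 15% serum with daily medium changes, and were taken as undifferentiated colonies at passages 18 to 21 in ORMES-22, 16, 10 and 16 in rPESC-2 A, B and C, and 13 to 16 in ORMES-9. The fibroblasts are labelled male, grew without feeders in 10% serum, and had their medium changed every other day. Each ES group is 1 line, so line and parental origin cannot be told apart, and sex, feeders, serum, medium changes and cell type cannot be told apart between fibroblasts and ES cells. The labels call the replicates A, B and C biological. The p-values measure the spread between such cultures of 1 line or 1 fibroblast source, pooled over all 4 populations.

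Values are log2 expression as the authors deposited them, so a difference of 1 is 2-fold. A gene was called at an adjusted p under 0.05 (limma, Benjamini-Hochberg over all probe sets) together with a difference of at least 2-fold. A level of 4.26, under which 90% of the values of the 42 bacterial control probe sets lay, was taken as background. The group means of PDK4, SLC2A2, SLC2A9 and SLC2A13 all lay under it, and the other 37 genes exceeded it in at least 1 group. In these bulk samples, fewer cells of a type and less RNA per cell cannot be told apart.

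Marker lists were checked against the labels. The mean of 8 pluripotency markers was between 9.63 and 10.08 on the ES arrays and between 5.03 and 5.24 on the fibroblast arrays. NANOG went against this list, 1.32 higher in fibroblasts. ZFP42 differed by -0.10 without a call and was near the background level on all ES arrays (4.32 to 4.58). GDF3 was called higher in rPESC-2 (1.23) and ORMES-9 (1.29) than in ORMES-22. The mean of 9 fibroblast markers was between 10.41 and 10.49 in fibroblasts, between 8.07 and 8.26 in ORMES-22, between 7.41 and 7.87 in rPESC-2 and between 7.50 and 7.77 in ORMES-9. LUM was under the background level in the ES lines except on ORMES-9 C (4.61), and TWIST1 was called lower in both parthenogenetic lines than in ORMES-22. FBLN1 went against this list, 2.07 lower in fibroblasts (difference -2.07), and DCN and THY1 differed by -0.43 and -0.31 without a call. The mean of 7 endoderm markers was 6.26 to 6.80 in ORMES-22, 7.86 to 8.05 in rPESC-2, 7.48 to 7.92 in ORMES-9 and 5.78 to 5.94 in fibroblasts, where GATA6 alone of the 7 was called higher than in the ES lines (1.80). SOX17 (2.92), GATA6 (2.78), CER1 (2.21) and FOXA2 (1.89) were called higher in rPESC-2 than in ORMES-22. In ORMES-9, SOX17 (2.37), FOXA2 (2.33) and GATA6 (2.14) were called higher than in ORMES-22. No endoderm marker was called lower in either comparison. Of 3 muscle markers, CNN1 and MYH11 were called lower in ORMES-9 than in ORMES-22. These lists moved with the comparisons below, and their part in them was not tested. Array A of ORMES-22 stood apart from its own line: over all probe sets it correlated at 0.9855 and 0.9844 with ORMES-22 B and C, and at 0.9882 to 0.9896 with the rPESC-2 arrays. Without it, 2 of the 41 genes were called between rPESC-2 and ORMES-22 in place of 0, and the counts of the other comparisons (0 between ORMES-9 and ORMES-22, 1 between ORMES-9 and rPESC-2, 16 between fibroblasts and ES lines) were the same.

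Fibroblasts were set against the mean of the 3 ES lines, the comparison with adult somatic cells that the study includes. Fibroblasts had far less of the hexose transporter transcripts SLC2A1 and SLC2A3, of the aldolase ALDOC and of the mitochondrial gatekeepers PDK1 and PDK3, and more of the enolase ENO2, the phosphofructokinase activator enzyme PFKFB3 and the monocarboxylate transporter SLC16A7. Of the 9 enzymes measured between fructose bisphosphate and lactate, 7 differed by less than 2-fold. The other 2, ALDOC and ENO2, were called, a share near the 27.4% called over all genes. Of the 41 genes 16 were called, 6 higher and 10 lower in fibroblasts. Over all genes 27.4% were called, 12.9% higher and 14.5% lower, and over all probe sets 19.3% were called. The median difference was -0.23 over the 41 genes and -0.15 over all genes. The plot of all 41 differences by pathway step shows that every step with 1 measured gene lies inside 2-fold in the probe set used. Among these steps, a second GPI probe set was called higher in fibroblasts (1.32, limma adjusted p = 0.0016). The called genes belong to families with several measured isoenzymes or transporters. Phosphoglycerate mutase and lactate dehydrogenase are steps with 1 gene here only because PGAM1, LDHB and LDHC were not analysed.

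**Figure D1:**
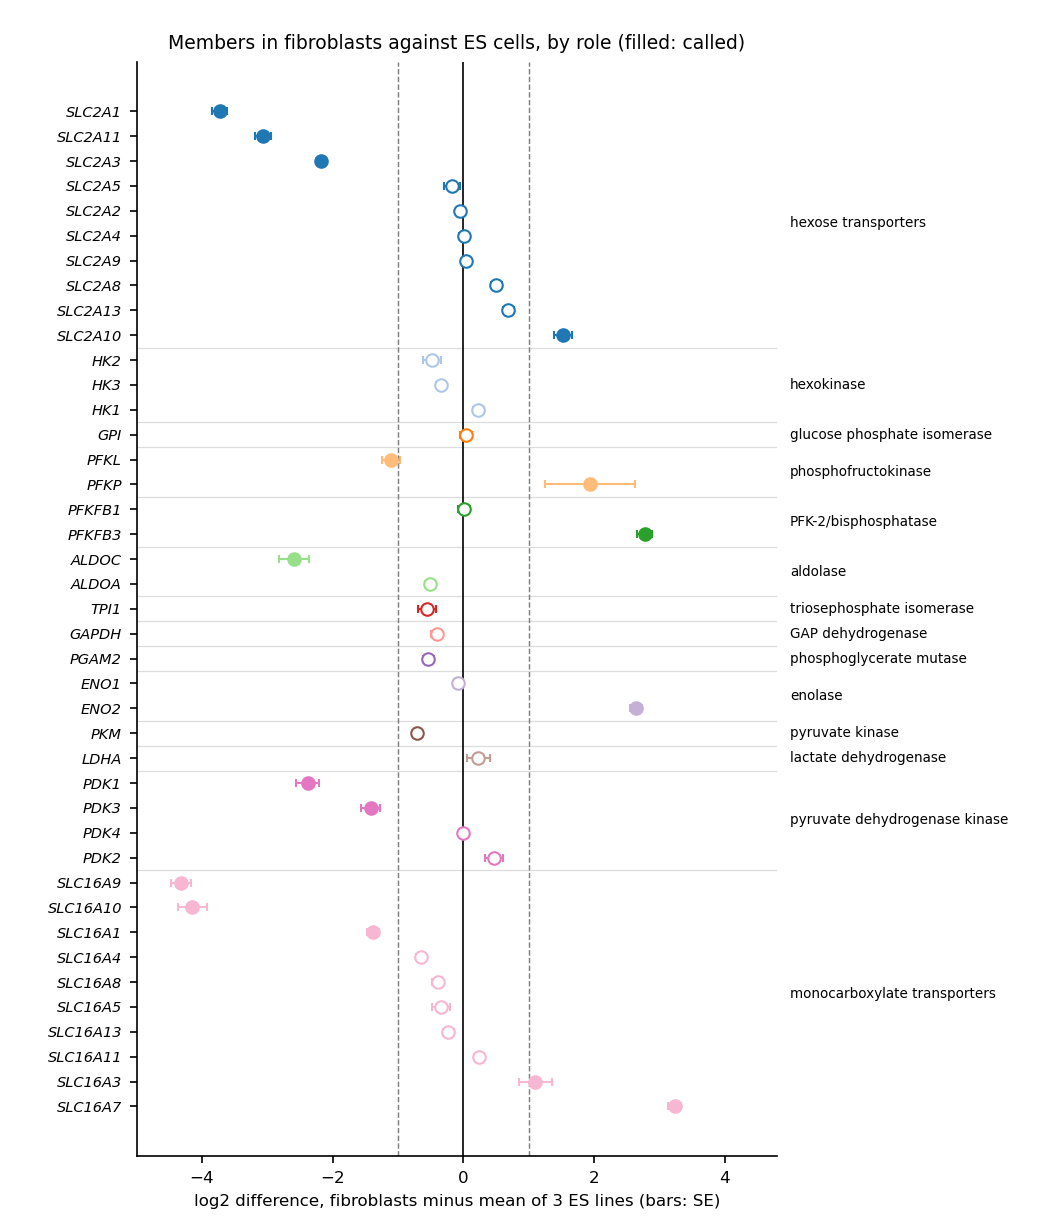
Log2 difference of each gene, fibroblasts minus the mean of the 3 ES lines, grouped by pathway step; bars are standard errors from limma, filled points are called genes and dashed lines mark 2-fold. The called genes run from -4.31 for SLC16A9 to 3.23 for SLC16A7.

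Among the hexose transporters, 3 of 10 were called lower and 1 higher in fibroblasts, against 14.5% and 12.9% of all genes. SLC2A1, the widely expressed transporter of basal glucose uptake also called GLUT1, read 7.09, 6.93 and 7.02 on the fibroblast arrays A, B and C, 10.84, 10.56 and 10.21 in ORMES-22, 10.96, 11.05 and 10.78 in rPESC-2, and 10.85, 10.89 and 10.52 in ORMES-9. All ES arrays lay more than 3 log2 units above all fibroblast arrays. The difference was -3.73 (SE 0.12, limma adjusted p = 7e-11), 13.3-fold lower. A second SLC2A1 probe set, with values of 4.16 to 4.61 near the background, differed by -0.07. SLC2A3, the high-affinity transporter GLUT3 known from neurons and early embryos, read 10.80, 10.71 and 10.83 in fibroblasts, 12.96, 13.10 and 12.99 in ORMES-22, 13.03, 13.12 and 12.88 in rPESC-2, and 12.76, 12.80 and 12.94 in ORMES-9. Its ES arrays again lay all above the fibroblast arrays, by a difference of -2.17 (SE 0.07, limma adjusted p = 5.4e-11) or 4.51-fold. The 3 other SLC2A3 probe sets differed in the same direction but by less, -1.20, -0.85 and -0.37.

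SLC2A11, a transporter of glucose and fructose, read 4.88, 4.61 and 4.89 in fibroblasts, 7.83, 7.41 and 7.44 in ORMES-22, 8.05, 8.35 and 8.14 in rPESC-2, and 8.15, 7.78 and 7.61 in ORMES-9. The groups did not overlap, and fibroblasts were 8.38-fold lower (-3.07, SE 0.13, limma adjusted p = 6.3e-10); its second probe set gave -1.89. SLC2A10 (GLUT10), the family member whose loss causes a connective tissue disorder of the arteries, was the called gene in the opposite direction. It read 10.24, 10.24 and 10.20 in fibroblasts, 9.03, 8.22 and 8.35 in ORMES-22, 8.82, 9.10 and 8.90 in rPESC-2, and 8.55, 8.81 and 8.56 in ORMES-9. The fibroblast arrays lay above all ES arrays, 2.87-fold higher (1.52, SE 0.14, limma adjusted p = 1.3e-06). SLC2A8, an intracellular hexose transporter, differed by 0.51 (adjusted p = 0.00019), under 2-fold, with no overlap between groups. The muscle and fat transporter SLC2A4 (GLUT4) differed by 0.01 and the fructose transporter SLC2A5 by -0.17, and their groups overlapped.

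Hexokinase traps glucose in the cell as its phosphate, and none of its 3 genes was called. HK1, the housekeeping form, read 11.08, 11.00 and 11.14 in fibroblasts, 10.71, 11.03 and 10.57 in ORMES-22, 10.81, 10.78 and 10.83 in rPESC-2, and 11.05, 10.95 and 10.83 in ORMES-9. The groups overlapped, at a difference of 0.23 (limma adjusted p = 0.037), and the 3 other HK1 probe sets gave 0.67, 0.00 and -0.16. HK2, the inducible form, read 8.51, 8.59 and 8.44 in fibroblasts against 8.69 to 9.52 over the 9 ES arrays, a difference of -0.48 (adjusted p = 0.011). HK3 differed by -0.34. GPI, which turns glucose phosphate into fructose phosphate, read 11.13, 11.15 and 11.19 in fibroblasts, inside the ES range of 10.55 to 11.60. Its mean differed by 0.05 (limma adjusted p = 0.69), but a second GPI probe set was called at 1.32 (limma adjusted p = 0.0016).

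Phosphofructokinase commits sugar to glycolysis, and its liver and platelet forms were called in opposite directions. PFKL read 8.41, 8.11 and 8.35 in fibroblasts, 9.60, 9.41 and 8.84 in ORMES-22, 9.50, 9.68 and 9.62 in rPESC-2, and 9.52, 9.26 and 9.13 in ORMES-9. The groups did not overlap, and fibroblasts were 2.15-fold lower (-1.11, SE 0.14, limma adjusted p = 2.2e-05); against ORMES-22 alone the difference was -0.99, just inside 2-fold. PFKP read 11.37, 11.43 and 11.29 in fibroblasts but varied widely in the ES cells: 11.41, 9.67 and 8.93 in ORMES-22, 6.26, 10.46 and 7.69 in rPESC-2, and 10.09, 10.34 and 9.98 in ORMES-9. Array A of ORMES-22 reached the fibroblast level, so the groups overlapped. The mean was 3.82-fold higher in fibroblasts (1.94, SE 0.69, limma adjusted p = 0.029). Without fibroblast A, B or C this call was lost at adjusted p of 0.082, 0.083 and 0.073, with differences of 1.93, 1.90 and 1.97. Against single lines, the difference was 3.23 from rPESC-2, which was called. It was 1.36 from ORMES-22 (limma adjusted p = 0.19) and 1.22 from ORMES-9 (limma adjusted p = 0.25), which were not called. The fit shares its spread estimate over all groups, so the wide PFKP spread in rPESC-2 and ORMES-22 also enters the ORMES-9 test. All ORMES-9 arrays lay under all fibroblast arrays.

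PFKFB3 makes a regulatory fructose bisphosphate that activates phosphofructokinase and is distinct from the one cleaved by aldolase. It read 7.23, 7.11 and 6.85 in fibroblasts, 4.36, 3.98 and 4.37 in ORMES-22, 4.25, 4.65 and 4.53 in rPESC-2, and 4.05, 4.24 and 4.15 in ORMES-9. Only 4 of the 9 ES arrays exceeded the background level, whereas all 3 fibroblast arrays lay far above it. The measured difference was 2.78 (SE 0.11, limma adjusted p = 5.1e-10), 6.85-fold. The related PFKFB1, best known from liver, differed by 0.01.

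Aldolase cleaves fructose bisphosphate. ALDOC, the form abundant in brain, read 7.37, 7.16 and 7.34 in fibroblasts, 10.24, 9.40 and 8.72 in ORMES-22, 10.09, 10.35 and 10.05 in rPESC-2, and 10.05, 10.26 and 9.77 in ORMES-9. All ES arrays were higher, and fibroblasts were 6.02-fold lower (-2.59, SE 0.23, limma adjusted p = 9.3e-07); a second probe set gave -3.17. The widespread form ALDOA read 12.84, 12.81 and 12.88 in fibroblasts, 13.38, 13.29 and 13.05 in ORMES-22, 13.38, 13.45 and 13.44 in rPESC-2, and 13.47, 13.38 and 13.34 in ORMES-9. It too had groups that did not overlap, but its difference was only -0.51 (limma adjusted p = 4.4e-05).

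The steps from triose phosphate to phosphoglycerate showed small differences. TPI1, which interconverts the triose phosphates, read 11.28, 11.16 and 11.17 in fibroblasts, 11.82, 11.50 and 10.93 in ORMES-22, 11.88, 11.98 and 11.94 in rPESC-2, and 11.97, 11.98 and 11.81 in ORMES-9. Only array C of ORMES-22 fell below the fibroblasts, and the difference was -0.55 (limma adjusted p = 0.0042). GAPDH, the dehydrogenase often used as a reference gene, read 12.81, 12.67 and 12.64 in fibroblasts, 13.07, 13.01 and 12.78 in ORMES-22, 12.99, 13.21 and 13.17 in rPESC-2, and 13.30, 13.37 and 13.13 in ORMES-9. Its difference was -0.40 (limma adjusted p = 0.0011), with overlap of 1 array on each side. The 5 GAPDH control probe sets of the array, which were left out with the other controls, gave differences of -0.20 to 0.05 at values of 13.23 to 14.33. PGAM2, the muscle form of phosphoglycerate mutase, read 6.60, 6.63 and 6.69 in fibroblasts, 7.12, 7.00 and 6.72 in ORMES-22, 7.07, 7.12 and 7.10 in rPESC-2, and 7.41, 7.40 and 7.60 in ORMES-9. The groups did not overlap, at a difference of -0.53.

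Enolase was split between its isoenzymes. ENO1, the ubiquitous alpha enolase, read 13.64, 13.65 and 13.61 in fibroblasts, 13.71, 13.68 and 13.64 in ORMES-22, 13.71, 13.77 and 13.73 in rPESC-2, and 13.76, 13.73 and 13.71 in ORMES-9, a difference of -0.08 (limma adjusted p = 0.18). These values lie near the top of the arrays' range, whose maxima were 14.59 to 14.73. Its other 3 probe sets gave -0.16, -0.20 and, in a dimmer one, -1.0. ENO2, the gamma enolase used as a marker of neurons, read 12.62, 12.60 and 12.64 in fibroblasts, 10.25, 9.64 and 9.95 in ORMES-22, 10.04, 10.15 and 10.01 in rPESC-2, and 9.97, 9.93 and 9.88 in ORMES-9. Every fibroblast array was above every ES array by over 2 log2 units, 6.24-fold on average (2.64, SE 0.10, limma adjusted p = 2.6e-10).

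PKM, pyruvate kinase, read 12.28, 12.21 and 12.24 in fibroblasts, 12.86, 12.93 and 12.57 in ORMES-22, 13.00, 13.04 and 13.04 in rPESC-2, and 13.04, 13.05 and 13.00 in ORMES-9. The groups did not overlap, but the difference of -0.70 (limma adjusted p = 3e-06) stayed under 2-fold, as in the other bright PKM probe set (-0.84). These probe sets are named only by gene, so the M1 and M2 splice forms were not separated. LDHA, which reduces pyruvate to lactate, read 13.13, 13.08 and 13.06 in fibroblasts, 13.01, 12.64 and 11.85 in ORMES-22, 12.98, 12.72 and 12.98 in rPESC-2, and 13.22, 13.29 and 13.03 in ORMES-9. The fibroblasts lay within the ES range, and the difference was 0.23 (limma adjusted p = 0.29).

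The PDKs phosphorylate and inhibit pyruvate dehydrogenase. PDK1, known as a hypoxia-inducible member, read 4.76, 5.06 and 4.70 in fibroblasts, 6.82, 7.74 and 6.92 in ORMES-22, 7.29, 7.45 and 6.98 in rPESC-2, and 7.42, 7.27 and 7.09 in ORMES-9. Fibroblasts were below all ES arrays, 5.20-fold on average (-2.38, SE 0.18, limma adjusted p = 1.5e-07). PDK3 read 5.28, 5.87 and 5.41 in fibroblasts, 7.20, 6.80 and 6.46 in ORMES-22, 7.09, 7.17 and 7.06 in rPESC-2, and 7.03, 6.91 and 6.69 in ORMES-9. It was also lower without overlap, 2.67-fold (-1.42, SE 0.15, limma adjusted p = 4.1e-06). PDK2 went the other way by 0.47 (adjusted p = 0.0092), under 2-fold, and PDK4 was not above background in any group.

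**Figure D2:**
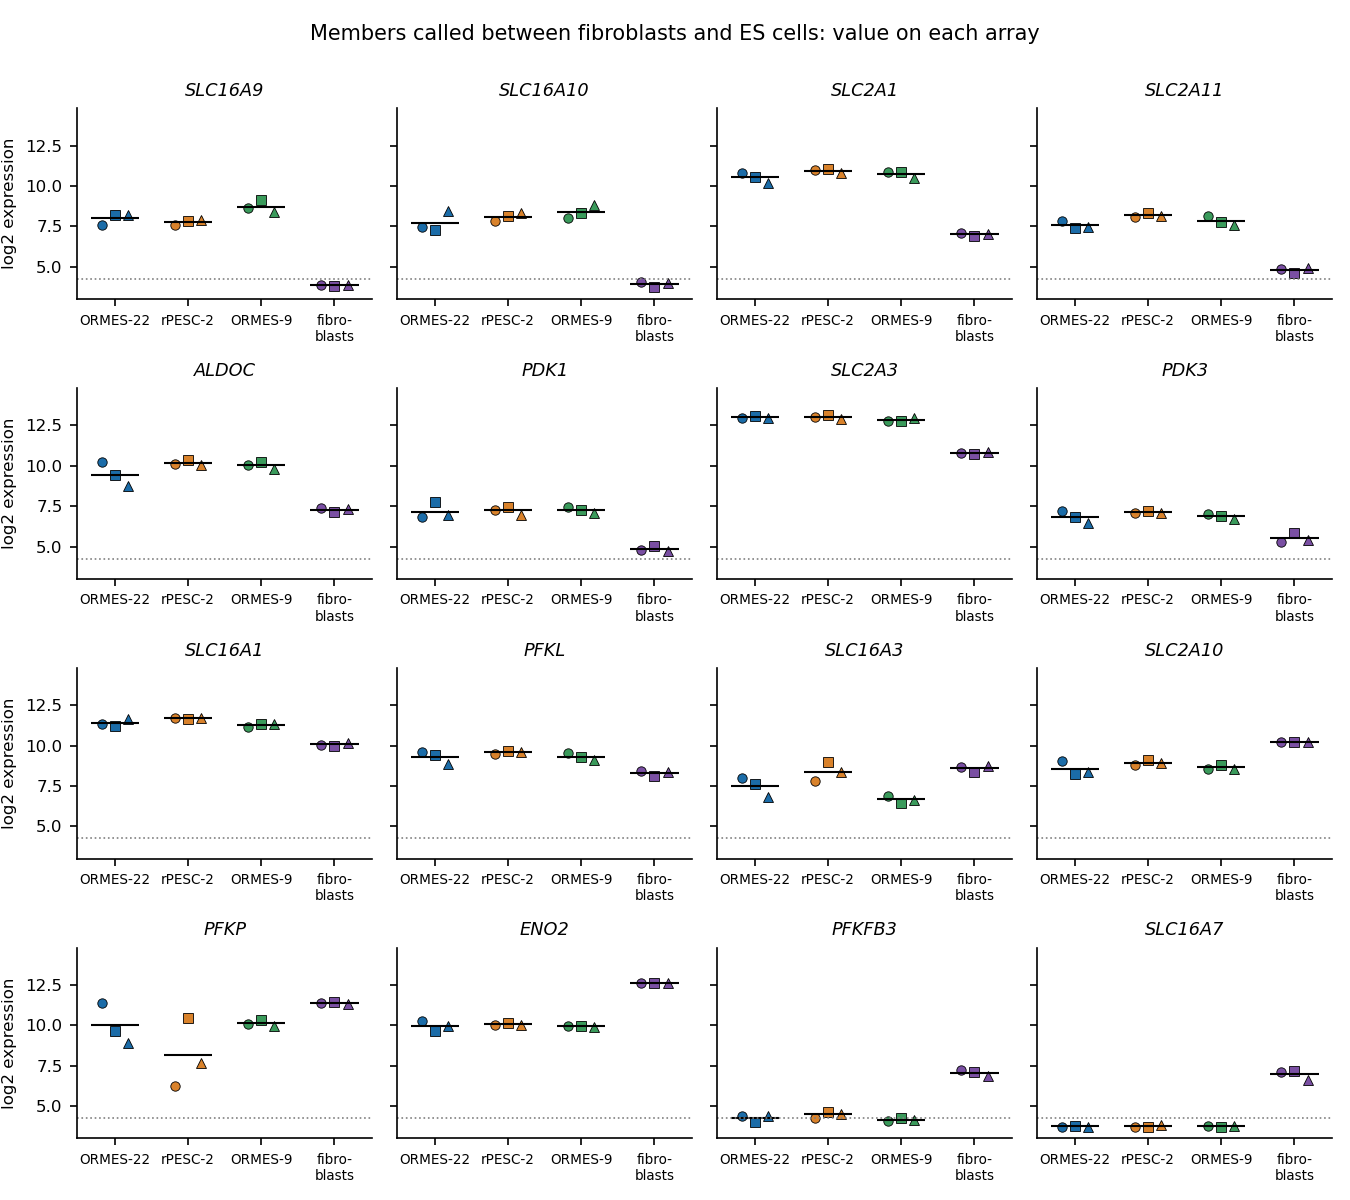
Log2 expression of the 16 called genes on each array (circle A, square B, triangle C; lines are group means; the dotted line is the background level of 4.26). Fibroblast and ES arrays are separate in every panel except PFKP and SLC16A3.

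In the SLC16A family, 3 of 10 genes were called lower and 2 higher in fibroblasts, against 14.5% and 12.9% of all genes. SLC16A1 (MCT1), a proton-linked carrier of lactate and pyruvate in both directions, read 10.05, 9.98 and 10.17 in fibroblasts, 11.34, 11.22 and 11.65 in ORMES-22, 11.70, 11.64 and 11.69 in rPESC-2, and 11.14, 11.32 and 11.35 in ORMES-9. The groups were apart, and fibroblasts were 2.61-fold lower (-1.38, SE 0.09, limma adjusted p = 3.7e-08). Its 3 other probe sets gave -1.58, -0.99 and -0.54. SLC16A3 (MCT4), the lactate exporter of strongly glycolytic cells, read 8.69, 8.36 and 8.76 in fibroblasts, 7.99, 7.62 and 6.78 in ORMES-22, 7.79, 8.97 and 8.36 in rPESC-2, and 6.87, 6.46 and 6.65 in ORMES-9. Array B of rPESC-2 exceeded all fibroblast arrays. The mean was 2.15-fold higher in fibroblasts (1.10, SE 0.25, limma adjusted p = 0.0025). That call depended on the line, at 1.94 from ORMES-9 and 0.23 from rPESC-2 (adjusted p = 0.57), and without ORMES-22 C the difference was 0.99.

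SLC16A7 (MCT2), a high-affinity carrier of pyruvate and lactate, read 7.13, 7.14 and 6.64 in fibroblasts, 3.73, 3.79 and 3.68 in ORMES-22, 3.72, 3.68 and 3.85 in rPESC-2, and 3.74, 3.73 and 3.74 in ORMES-9. No ES array exceeded the background level, so fibroblasts were at least 6.56-fold higher (fitted difference 3.23, SE 0.10, limma adjusted p = 2.9e-11). Such a bound sets each array of the dim group at the higher of its own value and the background level. Its second probe set gave 1.23.

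The other called SLC16A genes are not known as lactate carriers. SLC16A9, a carrier linked to carnitine and creatine, read 3.85, 3.82 and 3.89 in fibroblasts, 7.61, 8.19 and 8.21 in ORMES-22, 7.59, 7.83 and 7.91 in rPESC-2, and 8.64, 9.12 and 8.40 in ORMES-9. The fibroblasts were not above background and at least 15.0-fold lower (fitted difference -4.31, SE 0.15, limma adjusted p = 1.6e-10). SLC16A10, the aromatic amino acid transporter TAT1, read 4.03, 3.75 and 3.96 in fibroblasts, 7.44, 7.26 and 8.44 in ORMES-22, 7.86, 8.13 and 8.31 in rPESC-2, and 7.99, 8.32 and 8.81 in ORMES-9. Fibroblasts were again not above background, at least 14.0-fold lower (fitted difference -4.14, SE 0.23, limma adjusted p = 9.1e-09), and its second probe set gave -3.16. SLC16A4, SLC16A5, SLC16A8, SLC16A11 and SLC16A13 differed by -0.65 to 0.24, and none was called.

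Viewed by role, 3 enzymes were higher and 4 lower of 21, and 3 transporters were higher and 6 lower of 20. On the path from glucose to pyruvate, 2 were higher and 2 lower of 14, with a median difference of -0.44. Beside these counts, 12.9% of all genes were called higher and 14.5% lower, with a median of -0.15. Whether the roles differ from all genes was not tested. Fibroblast arrays were all outside the range of the 9 ES arrays for 22 genes, above it for 6 and below it for 16; over all genes these shares were 21.9% and 35.6%. For 25 of the 41 genes the 95% interval of the difference lay inside 2-fold in both directions, as it did for 65.1% of all genes. At an unadjusted p under 0.05 stood 32 of the 41 genes, 78%, against 73.6% of all genes.

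The next comparisons asked whether the parthenogenetic lines differed from the biparental line and from each other. The lactate exporter SLC16A3 was the only one of the 41 genes called among the ES lines, 3.28-fold lower in ORMES-9 than in rPESC-2. In the probe sets used, the isomerase GPI was lowest in ORMES-9 and the carnitine-linked SLC16A9 highest there, each by less than 2-fold. The dimmest GPI probe set differed by -1.01 between ORMES-9 and rPESC-2, and the second read similarly in these lines. SLC2A1, SLC2A3, ENO1, ENO2, HK1 and ALDOA differed by 0.40 or less between any 2 ES lines. The difference plots of the 3 pairs show most genes near 0, with PFKP carrying by far the widest errors.

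**Figure D3:**
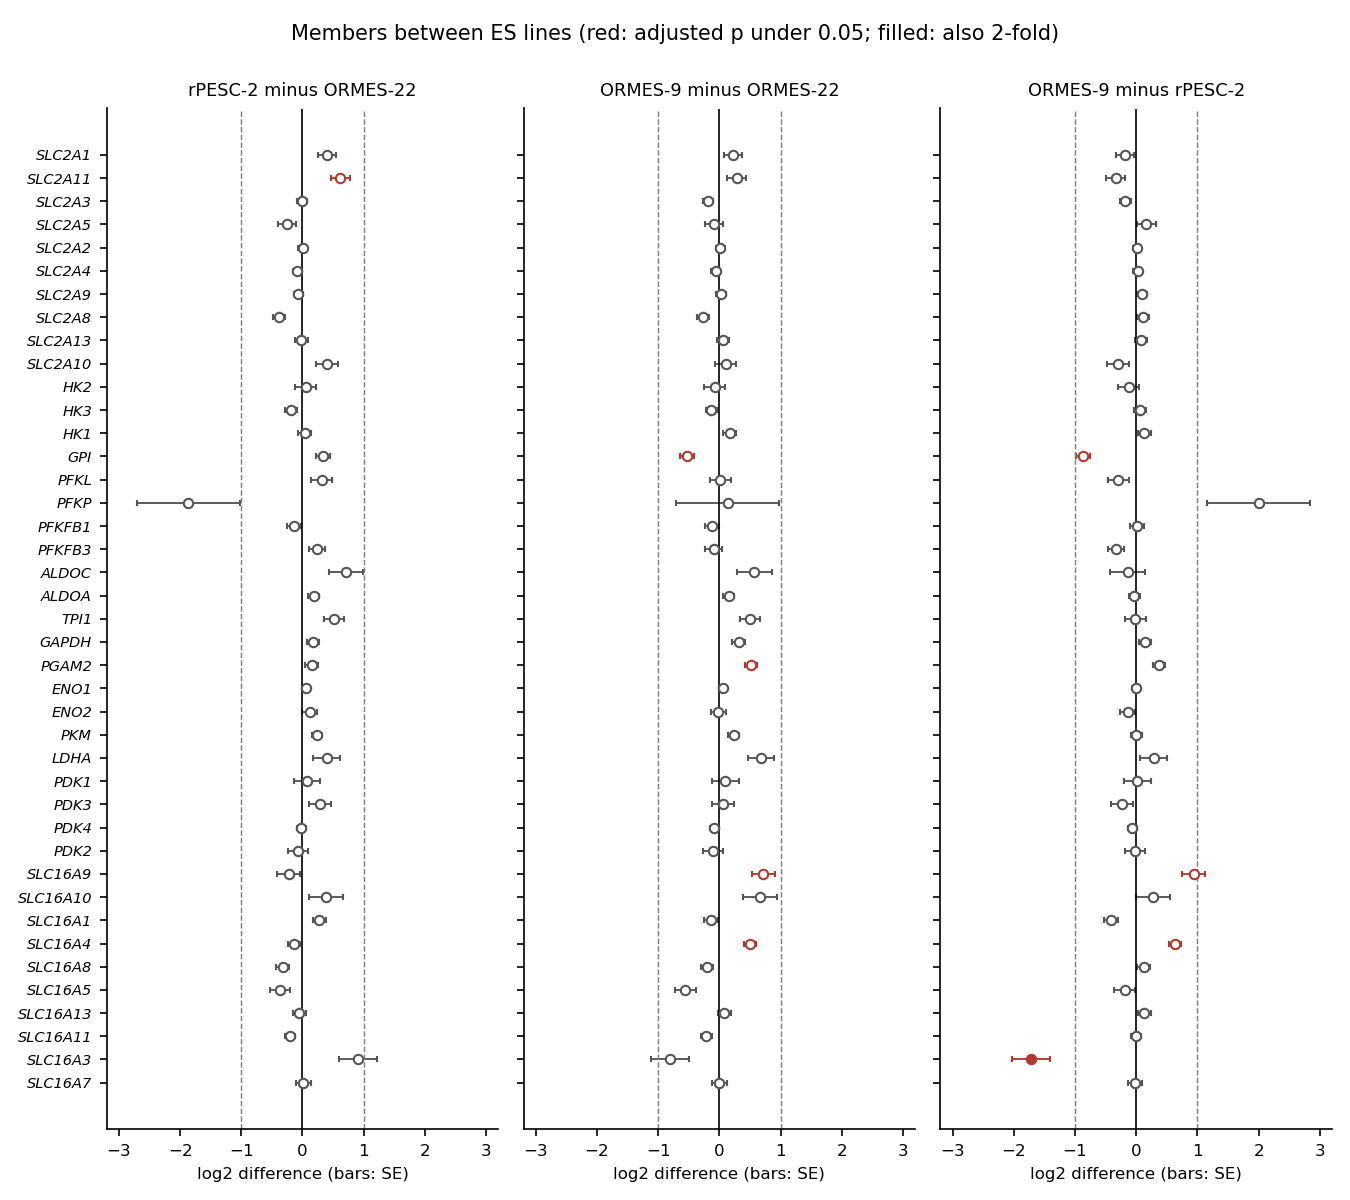
Log2 difference of each gene between ES lines, with standard errors from limma; red marks an adjusted p under 0.05, a filled point also 2-fold, and dashed lines mark 2-fold. Only SLC16A3 between ORMES-9 and rPESC-2 is filled, at -1.71.

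Between rPESC-2 and ORMES-22, 0 of the 41 genes were called by limma, where 1.69% of all genes and 1.24% of all probe sets were called. At an unadjusted p under 0.05 there were 14 of the 41, 34.1%, against 25.8% of all genes. The differences ran from -1.87 for PFKP to 0.91 for SLC16A3, with a median of 0.05 against -0.03 over all genes. Only SLC2A11 passed the adjusted p without reaching 2-fold, with all rPESC-2 arrays above all ORMES-22 arrays (0.62, SE 0.15, limma adjusted p = 0.042). PFKP had the largest difference, -1.87 (SE 0.84, adjusted p = 0.23), with a 95% interval from -3.71 to -0.02. It turned on single arrays: without rPESC-2 B it was -3.03 and called (adjusted p = 0.024), without rPESC-2 A it was -0.93 and without ORMES-22 A -1.16. SLC16A3 was 0.91 higher (SE 0.31, adjusted p = 0.12) and ALDOC 0.71 higher; without ORMES-22 A both were called, at 1.17 (adjusted p = 0.024) and 1.10 (adjusted p = 0.0022). For 38 of the 41 genes the 95% interval lay inside 2-fold, the exceptions being ALDOC, PFKP and SLC16A3; the share over all genes was 92.4%. Arrays of the lines did not overlap for ALDOA, GPI, PKM, TPI1 and SLC2A11, higher in rPESC-2, and for SLC2A8, SLC16A8 and SLC16A11, lower, 5 and 3 genes against 10.1% and 13.1% of all genes.

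Between ORMES-9 and ORMES-22, 0 of the 41 were called by limma, against 2.29% of all genes and 1.57% of all probe sets. An unadjusted p under 0.05 was found for 13 of the 41, 31.7%, and for 24% of all genes. GPI (-0.53, SE 0.12), PGAM2 (0.52, SE 0.10), SLC16A4 (0.50) and SLC16A9 (0.72, SE 0.19) passed the adjusted p but not 2-fold, with limma adjusted p of 0.018, 0.0079, 0.01 and 0.045. For each of them the arrays of the lines did not overlap. The SLC16A4 values lie near the background level, at 4.10 to 4.27 in ORMES-22 and 4.53 to 4.85 in ORMES-9. LDHA was 0.68 higher in ORMES-9 (adjusted p = 0.11), and SLC16A3 was 0.80 lower (difference -0.80, adjusted p = 0.18). Without ORMES-22 C, SLC16A3 was called at -1.15 (adjusted p = 0.035) and SLC16A10 at 1.02 (adjusted p = 0.014). For 35 of the 41 genes the 95% interval lay inside 2-fold, the exceptions being ALDOC, LDHA, PFKP, SLC16A3, SLC16A9 and SLC16A10; over all genes it was 92.5%.

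Between ORMES-9 and rPESC-2, 1 of the 41 genes was called, against 1.63% of all genes and 1.23% of all probe sets. The unadjusted p was under 0.05 for 8 of the 41, 19.5%, and for 21.5% of all genes. SLC16A3, on the arrays given above, was lower in ORMES-9 without overlap: its highest ORMES-9 value was 6.87 and its lowest rPESC-2 value 7.79. The difference was -1.71 (SE 0.31, limma adjusted p = 0.0071), with a 95% interval from -2.39 to -1.03. A second SLC16A3 probe set read 7.99, 9.07 and 8.39 in rPESC-2, 5.94, 5.50 and 5.65 in ORMES-9, 8.52, 7.74 and 6.12 in ORMES-22 and 8.77, 8.72 and 8.93 in fibroblasts. It gave the same order of lines and a difference of -2.79 between ORMES-9 and rPESC-2 (adjusted p = 0.0041), while the dimmest one gave -0.17 (adjusted p = 0.55). In the order of SLC16A3 group means, ORMES-9 (6.66) and ORMES-22 (7.46) did not pass the test of their difference (adjusted p = 0.18), nor did ORMES-22 and rPESC-2 (8.37, adjusted p = 0.12), nor rPESC-2 and fibroblasts (8.60, adjusted p = 0.57). Endoderm markers stood between 7.48 and 7.92 in ORMES-9 and 7.86 and 8.05 in rPESC-2, with 1 of 7, CER1, called lower in ORMES-9; their part in the SLC16A3 difference was not tested.

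GPI was 0.87 lower in ORMES-9 than in rPESC-2 (difference -0.87, SE 0.12, limma adjusted p = 0.00088), reading 10.55, 10.71 and 10.67 against 11.50, 11.60 and 11.44, with ORMES-22 between them at 11.38, 11.27 and 10.87. The lines were in the same order in the dimmest GPI probe set, where ORMES-9 read 7.38, 7.25 and 7.04, rPESC-2 8.32, 8.31 and 8.08 and ORMES-22 7.86, 7.74 and 7.66. The second GPI probe set behaved differently: it read 9.48, 11.31 and 10.87 in ORMES-22, 9.49, 9.15 and 8.89 in rPESC-2, 9.0, 9.36 and 9.24 in ORMES-9 and 11.00, 10.89 and 10.99 in fibroblasts. There ORMES-22 A stood with the parthenogenetic lines, and ORMES-22 B and C with the fibroblasts. SLC16A9 was 0.94 higher in ORMES-9 (SE 0.19, limma adjusted p = 0.012), and was called at 1.01 (adjusted p = 0.026) without rPESC-2 C and at 1.10 (adjusted p = 0.0092) without ORMES-9 C. SLC16A4 was under the background level on all rPESC-2 arrays, so only a bound holds: it was at least 1.36-fold higher in ORMES-9 (fitted difference 0.64, adjusted p = 0.0025). PFKP differed by 2.00 (SE 0.84, adjusted p = 0.26), by 3.16 and called (adjusted p = 0.015) without rPESC-2 B, and by 1.07 without rPESC-2 A. For 37 of the 41 genes the 95% interval lay inside 2-fold, all but GPI, PFKP, SLC16A3 and SLC16A9; over all genes it was 93.2%. The 3 pairs share lines, so their differences are not independent of each other.

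**Figure D4:**
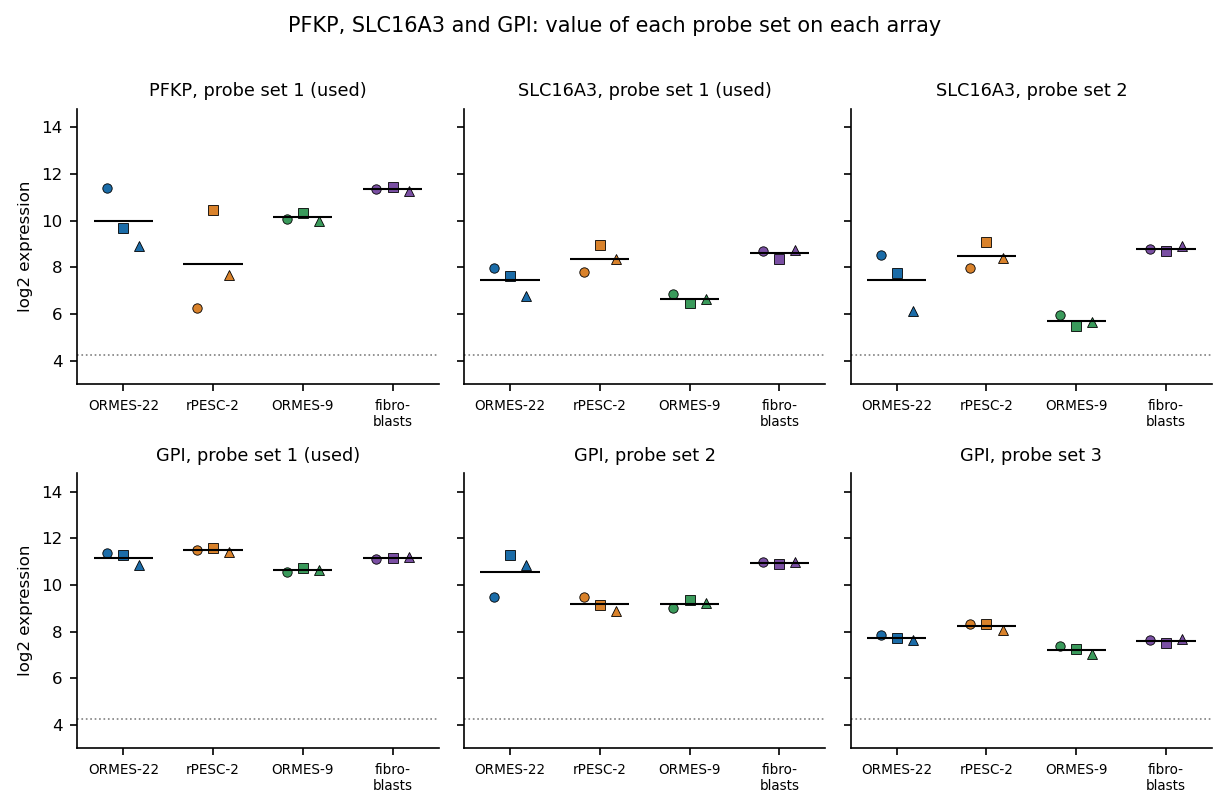
Log2 expression on each array (circle A, square B, triangle C; lines are group means; dotted line, background level of 4.26) for the PFKP probe set, the brighter SLC16A3 probe sets and the GPI probe sets. PFKP spans 6.26 to 10.46 within rPESC-2, SLC16A3 is lowest in ORMES-9 in both panels, and the second GPI probe set splits ORMES-22 between A at 9.48 and B at 11.31.

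The spread within lines was itself uneven. In ORMES-22, 5 of the 41 genes (12.2%, against 5.86% of all genes) differed 2-fold or more between the highest and lowest array, in rPESC-2 2 genes (4.88%, against 0.722%), and in ORMES-9 and fibroblasts 0 (against 0.701% and 0.0708%). The median SD over the genes was 0.21 in ORMES-22, 0.12 in rPESC-2, 0.10 in ORMES-9 and 0.09 in fibroblasts, where all genes had 0.15, 0.11, 0.10 and 0.10. On ORMES-22 A, 2 of the 41 genes, ALDOC and PFKP, were at least 2-fold above the mean of B and C and 0 as far below it; of all 14132 genes, 316 were above and 179 below.

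The genes around the pathway were read from lists of branches and regulators. Among 11 measured of 16 other isoenzymes and side enzymes, ADPGK, an ADP-using glucokinase, was 4.29-fold higher in fibroblasts (2.10) and PGM2L1, which makes glucose bisphosphate, 15.4-fold lower (-3.94). Of 6 measured genes of pyruvate entry into mitochondria, DLD, the shared dehydrogenase subunit of pyruvate dehydrogenase, was called higher (1.74). Of 6 pentose phosphate genes, RPIA was called lower (-1.61). Of 4 measured genes of the serine and glycine branch, which starts from phosphoglycerate, PHGDH was 7.28-fold lower (-2.86, SE 0.07, limma adjusted p = 5.3e-12) and SHMT1 lower (-1.65). These branches thus held called genes in both directions, 2 higher and 4 lower in all. Over all genes, 12.9% were called higher and 14.5% lower, the shares to set beside these counts and those of the following lists.

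Of 7 glycogen genes, UGP2, which makes UDP-glucose, was called higher (1.07) and the liver phosphorylase PYGL lower (-2.11). Among 8 genes of gluconeogenesis and glycerol phosphate, GPD2 (2.37) and GPD1L (1.06) were higher and the glucose phosphatase G6PC3 lower (-1.25). In the fructose, polyol and hexosamine list 4 of 9 were higher and 2 lower. There GFPT2 and GFPT1, which divert fructose phosphate to hexosamines for glycosylation, were 8.99-fold and 4.29-fold higher (3.17 and 2.10), and sorbitol dehydrogenase SORD was lower (-2.18).

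Of 18 regulators measured, 3 were higher and 4 lower, where 12.9% and 14.5% of all genes were. The hypoxia factor EPAS1 read 10.86, 10.69 and 10.82 in fibroblasts against 4.78 to 5.17 on the ES arrays, 57.8-fold higher (5.85, SE 0.07, limma adjusted p = 7.4e-15); HIF1A had no probe set of 1 symbol and was not analysed here. LIN28B, a let-7 inhibitor, and MYCN, a growth-promoting transcription factor, were not above background in fibroblasts and at least 123-fold and 69.8-fold lower. EMB, an ancillary protein of monocarboxylate transporters, was likewise not above background and at least 6.0-fold lower, and BSG, the chaperone of MCT1 and MCT4, differed by -0.99 (adjusted p = 1.2e-05), just under 2-fold. TXNIP, which restrains glucose uptake, was 3.73-fold lower (-1.90, SE 0.31, adjusted p = 0.00021). Of 15 hypoxia-response genes outside glycolysis, 6 were higher, led by LOX (5.57) and CA12 (2.81), which act on collagen and on pH, and 5 lower, led by CXCR4 (-2.51).

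**Figure D5:**
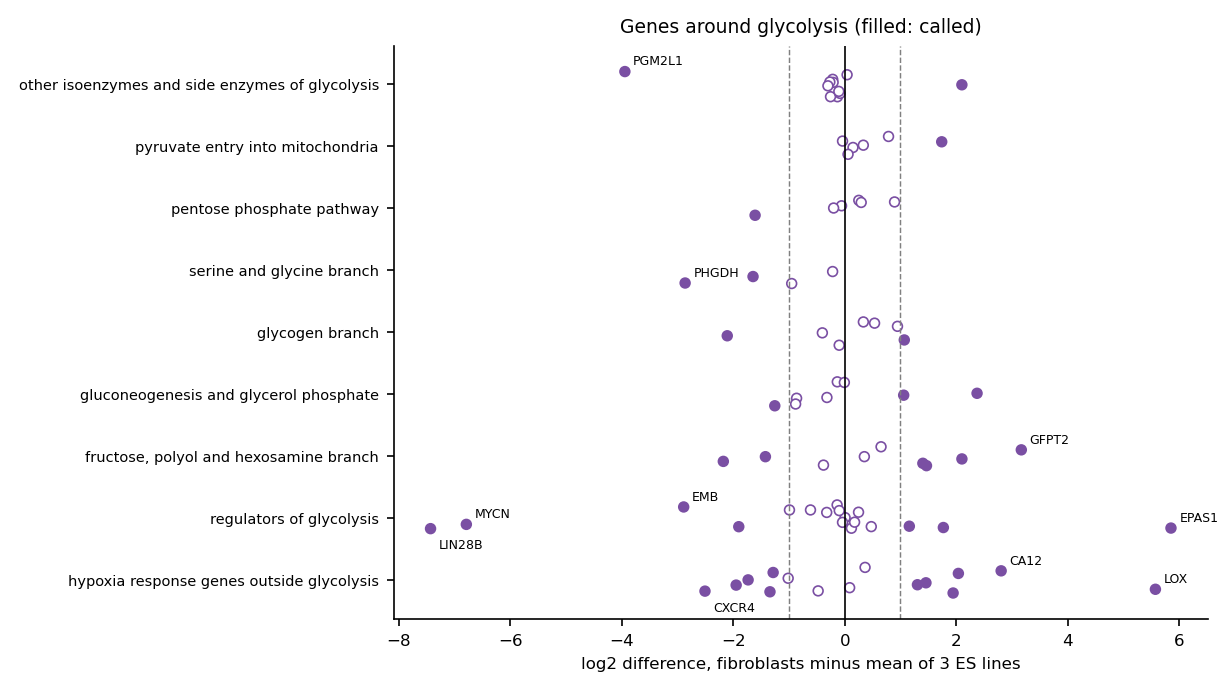
Log2 difference, fibroblasts minus the mean of the 3 ES lines, of each measured gene in the lists around glycolysis; filled points are called genes, dashed lines mark 2-fold, and vertical scatter within a list has no meaning. The lists hold called genes on both sides of 0, from LIN28B at -7.43 to EPAS1 at 5.85.

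Between the ES lines, most called genes of these lists were in the hypoxia-response list, in both directions. Over all genes, 1.69% were called between rPESC-2 and ORMES-22, 2.29% between ORMES-9 and ORMES-22 and 1.63% between ORMES-9 and rPESC-2. Whether the list differs from all genes was not tested. Between rPESC-2 and ORMES-22, 4 of 15 hypoxia-response genes were called. P4HA1 (1.74) and CXCR4 (1.57) were higher and LOX (-2.32) and ADM (-1.12) lower in rPESC-2. Of the other lists, SHMT1 (1.19) and SP1 (1.06) were called higher. Between ORMES-9 and ORMES-22, CXCR4 was higher (1.41) and ADM lower (-1.43). Between ORMES-9 and rPESC-2, CA12 was lower (-1.11). Among the glycolysis genes and transporters, only SLC16A3 was called in these 3 pairs, in ORMES-9 against rPESC-2 (-1.71). A link between it and the hypoxia-response list was not tested.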

How the data were processed

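Total RNA went through one-cycle labelling, per the labels' protocols, and was hybridised to 12 arrays. The authors deposited log2 values; the submitters' processing notes name RMA, with no version given in the sources used here. RMA aligns the arrays' distributions, so a shift common to most genes would be reduced, and low values are compressed. The log2 scale was taken from the values (array medians 5.01 to 5.10), and no detection calls were used. Array number limits the precision.

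Of 52865 features, 99 controls were left out. Of 52766 probe sets, 24956 had 1 symbol in the platform annotation, 361 several and 27449 none; the last 2 kinds were left unnamed. Sequences and positions were not used here, and probe sets of isoenzyme families may cross-hybridise with paralogs or pseudogenes. Group means were fitted with limma 3.58.1 in R 4.3.3 (lmFit, eBayes; 8 residual and 3.69 prior degrees of freedom; two-sided; no covariate, since the labels give no batch). The fit was tested on simulated data of 52766 probe sets. For each comparison the values were drawn anew, with 1 spread per probe set in all groups, and 200 probe sets were changed. Of those changed by 1 log2 unit, 58.2% were called between fibroblasts and ES lines and 56.7% between rPESC-2 and ORMES-22. Between ORMES-9 and ORMES-22 the share was 41.8%, and between ORMES-9 and rPESC-2 49.3%. At 2 units the shares were 98.5%, 100%, 100% and 100%, in the same order. The pairs of ES lines were simulated alike, so their shares differ by the random draw and not by the lines. The unequal spread of the real groups was not simulated. A change of 1 unit lies at the 2-fold limit for a call, so many estimates fall under it whatever the number of arrays.

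Per-array values are given for called genes, up to 10 in each direction, and the brightest gene of each pathway step; related genes are the largest called differences per list, with EPAS1, TXNIP and BSG. The genes and lists were chosen with earlier results of these data known. Alternatives were leaving out each array, the replicate letter as a block, other scalings, a filter on dim probe sets, the mean of a gene's probe sets, trended and robust eBayes, only the groups compared, each ES line alone and no minimum fold.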

Additional observations from a re-analysis of the deposited data

Results flagged for a closer look

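SLC16A3 differed between the parthenogenetic lines in its distance from ORMES-22: it was 0.91 higher in rPESC-2 and its difference in ORMES-9 was -0.80, and the test of ORMES-9 against rPESC-2 gave -1.71 (limma adjusted p = 0.0071). A second SLC16A3 probe set, not used for the gene's value, gave -1.77 between ORMES-9 and ORMES-22 (limma adjusted p = 0.046), a comparison in which the probe set used was not called.

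For GPI, probe sets other than the one used carried called differences. One gave -1.01 between ORMES-9 and rPESC-2 (limma adjusted p = 0.00012), the direction of the probe set used. The other gave -1.37 between rPESC-2 and ORMES-22 (adjusted p = 0.045), -1.35 between ORMES-9 and ORMES-22 (adjusted p = 0.042) and 1.32 between fibroblasts and the mean of the ES lines (adjusted p = 0.0016). The probe set used gave 0.34, -0.53 and 0.05 in these 3 comparisons, so the GPI probe sets differed in sign between rPESC-2 and ORMES-22.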

How the results depend on the processing

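Of the 17 called differences, 14 kept direction and call under every alternative tried; over 372 alternative values, 362 kept both, 10 lost the call and 0 reversed. Leaving out 1 array gave 0 to 2 called genes of the 41 between rPESC-2 and ORMES-22 (0 with all arrays), 0 to 2 between ORMES-9 and ORMES-22 (0), 1 to 2 between ORMES-9 and rPESC-2 (1) and 15 to 16 between fibroblasts and ES lines (16). With no minimum fold the counts were 1, 4, 4 and 32, in the same order. Each remaining alternative gave 0, 0, 1 and 14 to 16. PFKP lost its fibroblast call with trended and robust eBayes (adjusted p = 0.051), and SLC16A3 with the mean of its probe sets (0.98). With that mean, SLC2A1 differed by -1.90 and SLC2A3 by -1.15. SLC16A4 was called against ORMES-9 alone (-1.03), but it was under the background level on all fibroblast arrays, which gives only a bound of at least 1.36-fold.

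Over all probe sets, 656 were called between rPESC-2 and ORMES-22, but 332 in a fit of those groups alone, 1493 without ORMES-22 A and 2536 with no minimum fold. Between ORMES-9 and ORMES-22 the count was 831, and 1284 without ORMES-22 A and 3158 with no minimum fold; between the parthenogenetic lines it was 650 and 2753, and between fibroblasts and ES lines 10169 and 31829. With the mean of a gene's probe sets, 201, 247, 180 and 3436 genes were called in the 4 comparisons. Scaling by array medians or quantiles moved the median of all genes by 0.03 and 0.02. Deviations of same-lettered arrays correlated weakly (18 pairs, r from -0.31 to 0.26, 6 over 0.1), and 4 of 12 arrays correlated best with their own letter. With 3 arrays per group this cannot exclude that the letters pair the samples, which were analysed as unpaired. With the letter as a replicate block the counts among the glycolysis genes and transporters were 0, 0, 1 and 16. In simulated data, changes of exactly 2-fold were often not called, since a call itself needs an estimate of at least 2-fold. Signal under the background level of 4.26 gives only bounds.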

Other observations

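On rPESC-2 B, taken at passage 10 where A and C were taken at passage 16, 11 genes were at least 2-fold higher than on both other rPESC-2 arrays and 0 at least 2-fold lower. Of these, 4 were at least 4-fold higher, and PFKP ranked 3 by the size of the gap. MEST, an imprinted gene of the paternal allele, read 3.71 on A, 8.95 on B and 3.86 on C. ZNF22, a zinc finger gene, read 4.37, 8.75 and 5.83, PFKP 6.26, 10.46 and 7.69, and FAIM, an inhibitor of apoptosis, 5.02, 7.04 and 4.68. These genes were chosen after their values were seen.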
